A study of Mus musculus with 12 samples.

Results

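Paclitaxel was compared with its solvent in MOC2-27 cells labelled EV-deficient, a derivative of the mouse oral squamous carcinoma line MOC2 whose release of extracellular vesicles (EVs, membrane particles shed by cells) was blocked. The comparison rested on 6 of the 12 libraries of the study, which were chosen by their labels: 3 controls, with DMSO as the treatment, and 3 libraries from cells given 600 nM paclitaxel for 48 h to induce senescence. The other 6 libraries came from another derivative, MOC2-25, labelled EV-proficient, 3 with DMSO and 3 with paclitaxel at the same dose and time. All cultures grew in a serum-containing medium with hydrocortisone, cholera toxin, insulin and EGF, so that these factors were shared by every group. The gene behind the block of vesicle release is not named in the labels, MOC2-27 and MOC2-25 are 1 derivative each, so that the EV label and the derivative cannot be told apart, and nothing there says that replicates came from separate cultures. P-values therefore measure the spread between these libraries only, which may be technical.

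Paclitaxel binds beta-tubulin and stabilises microtubules, so that dividing cells are held in mitosis and may leave it without dividing. Cells that stop dividing for good but stay alive are called senescent, and they typically secrete cytokines, chemokines and proteases and enlarge their lysosomal compartment. Interferon signalling runs from receptors through transcription factors such as STAT2 and IRF9 to a large set of antiviral genes, and sensors of nucleic acids in the cytosol can start it.

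The counts came from polyadenylated RNA, with totals of 49886775 to 62955757 per DMSO library and 40918761 to 53242324 per paclitaxel library. Levels below are CPM, counts scaled to a common library size, and errors are SDs over 3 libraries unless given as SE. A gene was called where the edgeR quasi-likelihood test, adjusted by the Benjamini-Hochberg method over 18108 genes, gave a value under 0.05. Mitochondrial genes took 0.644% ± 0.0763 of the counts under DMSO and 1.27% ± 0.189 under paclitaxel. The 50 most abundant genes of each library took 13.3% ± 0.172 and 11.7% ± 0.360, and 15702 to 16126 genes had at least 10 counts under DMSO against 17592 to 18732 under paclitaxel. Epithelial keratins were abundant: Krt8 and Krt18, simple-epithelium keratins, stood at 1879, 1735 and 1824 CPM and 1561, 1414 and 1461 CPM under DMSO, whereas Krt5 and Trp63, markers of basal squamous cells, had at most 8 and 11 counts in any of the 6.

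A pattern that crosses the EV labels has to be read beside every result. The table holds an added row named dngfr, which the labels do not describe and which was kept out of the tests. Its level was 1.89, 2.00 and 2.54 CPM in the EV-deficient DMSO libraries and 10.7, 9.63 and 12.4 CPM in the EV-deficient paclitaxel libraries. In the cells labelled EV-proficient the order was the opposite, with 5.73, 9.07 and 12.2 CPM under DMSO and 2.47, 3.50 and 3.76 CPM under paclitaxel. The second added row, gfp, had 0 counts in every library. On the second principal component, which held 16.4% of the variance, the EV-deficient paclitaxel libraries (34.2 to 43.5) likewise lay with the EV-proficient DMSO libraries (27.2 to 36.5), and the EV-deficient DMSO libraries (-24.7 to -20.5) with the EV-proficient paclitaxel libraries (-64.6 to -37.9). The first component, with 54.1% of the variance, parted the 6 paclitaxel libraries (51.3 to 89.3) from the 6 DMSO libraries (-69.5 to -64.1), as the treatment labels have them. Whether the derivatives changed with the drug or a derivative label does not match its library cannot be told apart in these data. For that reason the libraries labelled EV-deficient paclitaxel were also compared with the EV-proficient DMSO libraries, and values against both are plotted for every gene list and printed for the main results. Both comparisons use the same paclitaxel libraries, so that the second is no independent repeat of the first.

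**Figure D1:**
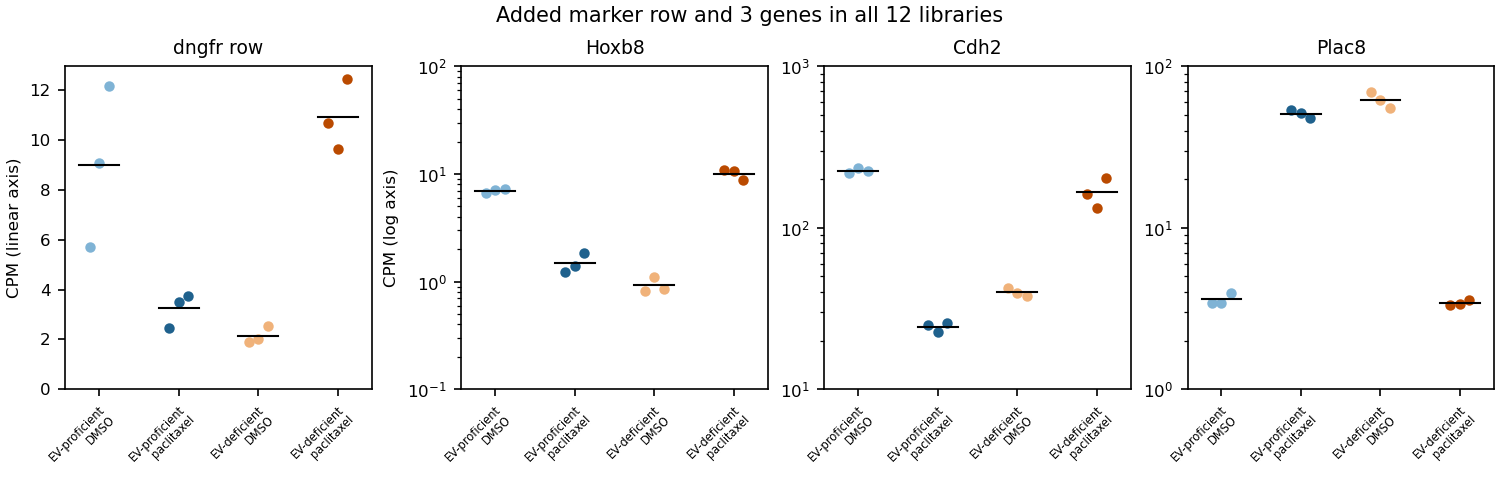
Levels in CPM of the added dngfr row (linear axis) and of Hoxb8, Cdh2 and Plac8 (log axes) in each of the 12 libraries, by group; points are libraries and bars are group means. In each panel the EV-deficient paclitaxel libraries lie nearer to the EV-proficient DMSO libraries than to the EV-deficient DMSO libraries.

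Most of the transcriptome moved. Of the 18108 genes tested, 11396 (62.9%) were called, 5873 (32.4%) higher and 5523 (30.5%) lower under paclitaxel, and for 12440 genes (68.7%) the 3 DMSO and the 3 paclitaxel libraries did not overlap. In RNA from whole cultures, fewer cells of a kind and less RNA per cell cannot be told apart. Against the EV-proficient DMSO libraries 11115 genes (61.4%) were called, 5903 (32.6%) higher and 5212 (28.8%) lower. Between these comparisons, 9156 genes (50.6%) were called in 1 direction against both DMSO groups and 242 (1.34%) in opposite directions. Paclitaxel effects in the 2 EV labels were called in opposite directions, with a called difference, for 1283 genes (7.09%). With upper-quartile scaling the median log2 fold change of all genes was 0.26 rather than 0.07, and 63.4% of the calls were higher rather than 51.5%. Small changes near these medians should be read relative to them.

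Direction went with level. Among genes with a mean under 1 CPM over the 6 libraries, 1680 of 5331 rose and 237 fell, whereas among genes over 100 CPM 405 of 2389 rose and 1606 fell. The median log2 fold change ran from 0.70 in the lowest class over 0.47 and -0.14 to -0.38 in the highest. Long intergenic noncoding RNAs gave 241 higher and 41 lower of 600 tested (beside 32.4% and 30.5% of all genes). The filter on low counts could keep a gene through the libraries of 1 group alone. Genes at low level were thus partly chosen by a difference between groups, in either direction. The part of this choice in the pattern was not tested. The lower share of counts on the 50 most abundant genes moved with the pattern, and the part of that share in it was not tested.

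**Figure D2:**
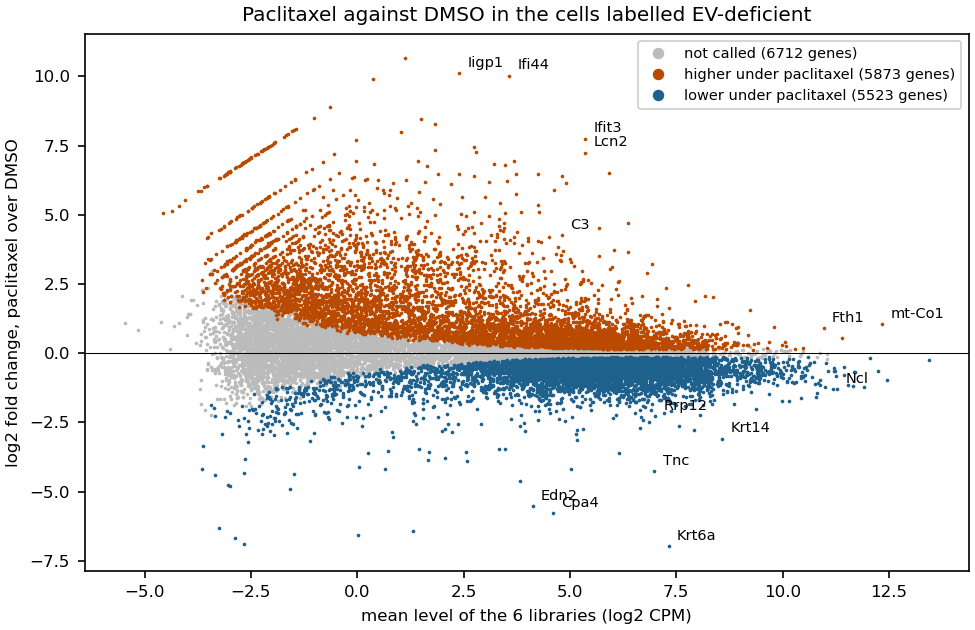
Log2 fold change of paclitaxel over DMSO in the cells labelled EV-deficient (vertical axis) against the mean level of the 6 libraries in log2 CPM (horizontal axis), 1 point per gene tested, coloured by call. The highest points to the left belong to genes with almost no counts under DMSO, whose fitted fold changes are not measured values; Ifit3 and Lcn2 are high and Krt6a and Cpa4 low among well-measured genes.

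**Figure D3:**
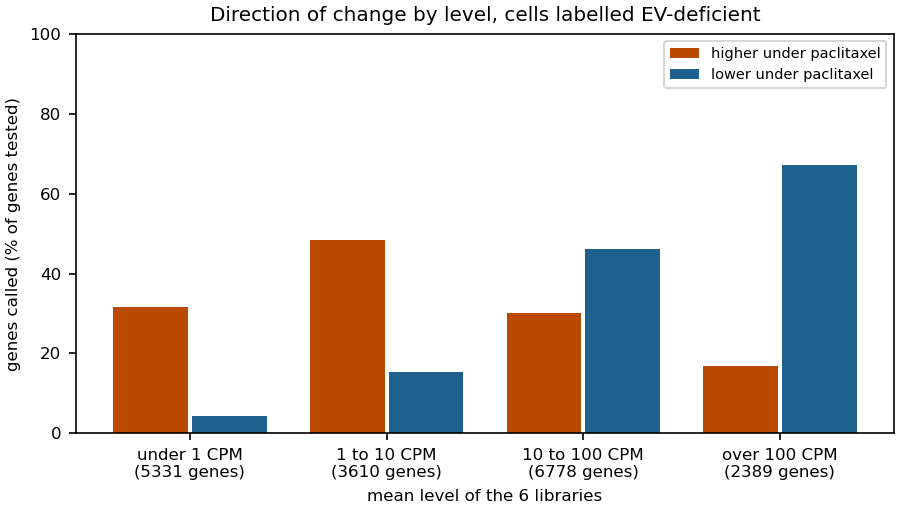
Percentage of tested genes called higher or lower under paclitaxel in 4 classes of mean level over the 6 libraries labelled EV-deficient; bars start at 0. The lower calls exceed the higher calls in the classes above 10 CPM.

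Interferon-stimulated genes were among those with the steepest rises, and their promoters were read first. Many such genes carry a response element bound by STAT2 with IRF9 or by other IRF factors, whose letters were searched as GAAA, any 2 bases and GAAA again on both strands in the 250 bases before the transcription start in the RefSeq promoters of GRCm38.p6. These letters occurred in 2.98% of all 32851 promoters, in 12 of the 28 effector genes with an entry (42.9%), in all 9 interferon-inducible GTPases with an entry and in 3 of 20 genes of MHC class I presentation (15.0%). The GTPases are related genes, and their promoters are not independent of each other. A match is a description of the sequence and not of binding.

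Shown are the 160 bases before the start of 5 genes whose transcripts rose, 5′ to 3′ on the gene's strand, with matches to the element in capitals. They lie at chr4:156200819-156200978, minus strand (Isg15), chr19:34583369-34583528, plus strand (Ifit3), chr12:26456453-26456612, minus strand (Rsad2), chr11:48992247-48992406, minus strand (Tgtp1) and chr11:58214817-58214976, plus strand (Irgm2). In Isg15 the 3 matches overlap, and in Ifit3 and Rsad2 the element reads on the opposite strand. Tgtp1 and Irgm2 both carry the run GAAACTGAAA.
Isg15: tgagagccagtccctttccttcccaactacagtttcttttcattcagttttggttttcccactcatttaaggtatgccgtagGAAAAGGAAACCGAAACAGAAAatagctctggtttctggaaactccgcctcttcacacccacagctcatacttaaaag
Ifit3: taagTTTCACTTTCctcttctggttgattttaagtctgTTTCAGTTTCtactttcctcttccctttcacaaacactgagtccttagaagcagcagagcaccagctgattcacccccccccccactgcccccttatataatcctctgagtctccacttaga
Rsad2: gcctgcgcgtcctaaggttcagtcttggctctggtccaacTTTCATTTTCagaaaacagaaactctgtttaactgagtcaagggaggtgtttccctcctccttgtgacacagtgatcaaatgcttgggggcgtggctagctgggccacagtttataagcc
Tgtp1: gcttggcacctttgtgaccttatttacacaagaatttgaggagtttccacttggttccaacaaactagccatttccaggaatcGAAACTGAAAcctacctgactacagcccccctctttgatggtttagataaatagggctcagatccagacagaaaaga
Irgm2: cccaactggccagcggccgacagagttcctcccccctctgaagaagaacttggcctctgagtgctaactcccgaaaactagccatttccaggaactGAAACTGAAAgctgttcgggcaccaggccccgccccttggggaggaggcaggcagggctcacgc

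All 39 interferon-stimulated effectors rose in the cells labelled EV-deficient, with a median log2 fold change of 5.04 (4.51 with the 4 members that had at most 3 counts in each DMSO library set to their lower bounds), against 0.07 for all genes, of which 32.4% rose. Ifit3, which binds viral RNA with its IFIT partners, stood at 0.393, 0.229 and 0.504 CPM in the DMSO libraries and at 97.95, 112 and 34.5 CPM under paclitaxel. All 3 treated libraries were above all 3 controls, the third being the lowest of the treated ones. The log2 fold change was 7.76 ± 0.39 SE (edgeR quasi-likelihood adjusted p 4.91e-13), and against EV-proficient DMSO it was 7.82. Ifit3 and its close copy Ifit3b (6.93) may share reads, as may Tgtp1 with Tgtp2 and the members of the OAS and GBP families.

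Rsad2, which makes a chain-terminating nucleotide, went from 1.09, 1.44 and 1.403 CPM to 134, 171 and 53.3 CPM (6.52 ± 0.33 SE). Cmpk2, its neighbour and a mitochondrial nucleotide kinase, rose by 6.46 on the log2 scale, and Rtp4 by 6.46. For Ifi44, at most 3 counts were found in any DMSO library, so that its rise to 28.6, 30.3 and 12.2 CPM is given as at least 391-fold. Isg15, the ubiquitin-like protein conjugated by this response, rose from 1.48, 2.002 and 1.95 to 38.1, 30.4 and 22.2 CPM (4.07 ± 0.18 SE), and Usp18, which removes it again, by 5.65. Oasl2, an OAS-like protein, rose by 6.15. Its relative Oasl1 rose by 1.80 here and by 3.96 against EV-proficient DMSO, and stood at 7.17 ± 0.761 CPM and 1.596 ± 0.282 CPM in the respective DMSO groups. Trim30a rose by 7.44, and Ifi207 by 6.80.

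The interferon-inducible GTPases, which attack the vacuoles of intracellular microbes, rose in 15 of 15 cases (median 5.10, the same at the lower bounds), beside 32.4% of all genes. Irgm2 went from 0.446, 0.626 and 0.373 CPM to 32.1, 28.5 and 17.9 CPM (5.76 ± 0.26 SE, edgeR adjusted p 8.87e-14), with no overlap between the groups. Tgtp1 rose from 0.143, 0.0626 and 0.0439 to 17.9, 15.5 and 7.94 CPM, a log2 fold change of 7.27 ± 0.37 SE that was 7.92 without EV-deficient DMSO replicate 1. Iigp1 was at the floor under DMSO and at 14.6, 11.7 and 5.201 CPM under paclitaxel, at least 173-fold higher. The regulator Irgm1, with the highest DMSO level of those named here, rose from 12.7, 12.97 and 13.99 to 129, 118 and 82.2 CPM (3.05).

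Against EV-proficient DMSO, 38 of the 39 effectors and 15 of the 15 GTPases were also higher (beside 32.6% of all genes), with medians of 4.35 and 4.53. Paclitaxel in the cells labelled EV-proficient called 58.2% of all genes, 31.1% higher and 27.1% lower. There 37 effectors rose and 1 fell, with a median of 3.18, and 14 of the 15 GTPases rose, with a median of 3.06. The difference of the paclitaxel effects between the labels was called in 40.7% of all genes (16.9% higher in the cells labelled EV-deficient). It was called higher there for 25 effectors and lower for 1, and higher for 10 of the 15 GTPases.

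The treated libraries did not respond alike. Paclitaxel replicate 3 had the lowest level of the 3 treated libraries in 39 of the 39 effectors and in 14 of the 15 GTPases, and replicate 2 had the highest in 26 effectors. For the genes of DNA replication, which fell, replicate 2 was lowest in 38 of 45 and replicate 3 highest in 36. Chemokines did not follow this order, with replicate 2 lowest in 13 of 19, and replicate 3 highest in 9 and lowest in 5. These counts describe 3 libraries. Without replicate 3 the number of genes called was 11310.

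None of the 8 interferon genes listed passed the filter on low counts. Ifnb1, interferon beta, had 0, 1 and 0 counts in the DMSO libraries and 10, 6 and 7 under paclitaxel, and Ifng had 0, 0 and 0 against 15, 3 and 6. These counts lie too near the floor of 3 for a fold change. All 6 receptor chains were higher, beside 32.4% of all genes, with a median of 1.27. Ifngr2 went from 20.8, 21.8 and 22.4 CPM to 63.3, 64.8 and 60.8 CPM (1.54 ± 0.07 SE), Ifnar2 rose by 1.01 and Ifnlr1, the chain specific to lambda interferons, by 1.37. Each of the 6 was also higher against EV-proficient DMSO (median 0.82), and for each of the 6 the paclitaxel effect was larger in the cells labelled EV-deficient by the test of the difference.

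Of 23 genes of nucleic acid sensing and interferon signalling, 18 rose and 3 fell, with a median of 2.08 (1.54 against EV-proficient DMSO, 17 higher and 3 lower). Of all genes 32.4% rose and 30.5% fell. Ddx58, which encodes the RNA sensor RIG-I, went from 21.97, 22.7 and 22.3 to 114, 119.8 and 104 CPM (2.34 ± 0.07 SE), and Ifih1, the RNA sensor MDA5, rose by 2.70. Zbp1, a sensor of Z-form nucleic acids, rose by 3.80, and Aim2, a DNA sensor of the inflammasome, by 4.22 from 0.115 ± 0.0287 CPM. Irf7, the factor that amplifies interferon production, stood at 1.07, 1.21 and 1.03 CPM and rose to 46.6, 43.3 and 23.3 CPM (5.09 ± 0.22 SE, edgeR adjusted p 5.55e-14). Stat2 and Irf9, factors that carry the signal to the genes, rose by 2.64 and 2.23.

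Among the 3 that fell was Mb21d1, which encodes the DNA sensor cGAS. It stood at 24.6, 23.7 and 25.00 CPM under DMSO and at 7.68, 5.797 and 7.01 CPM under paclitaxel (-1.84 ± 0.11 SE), a fall of smaller size against EV-proficient DMSO (-0.76). In the cells labelled EV-proficient the same gene rose by 0.34. Mavs, the adaptor of the RNA sensors, fell by 0.58 and Irf3 by 0.34 on the log2 scale. Irf3 was no longer called with upper-quartile scaling (-0.15).

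**Figure D4:**
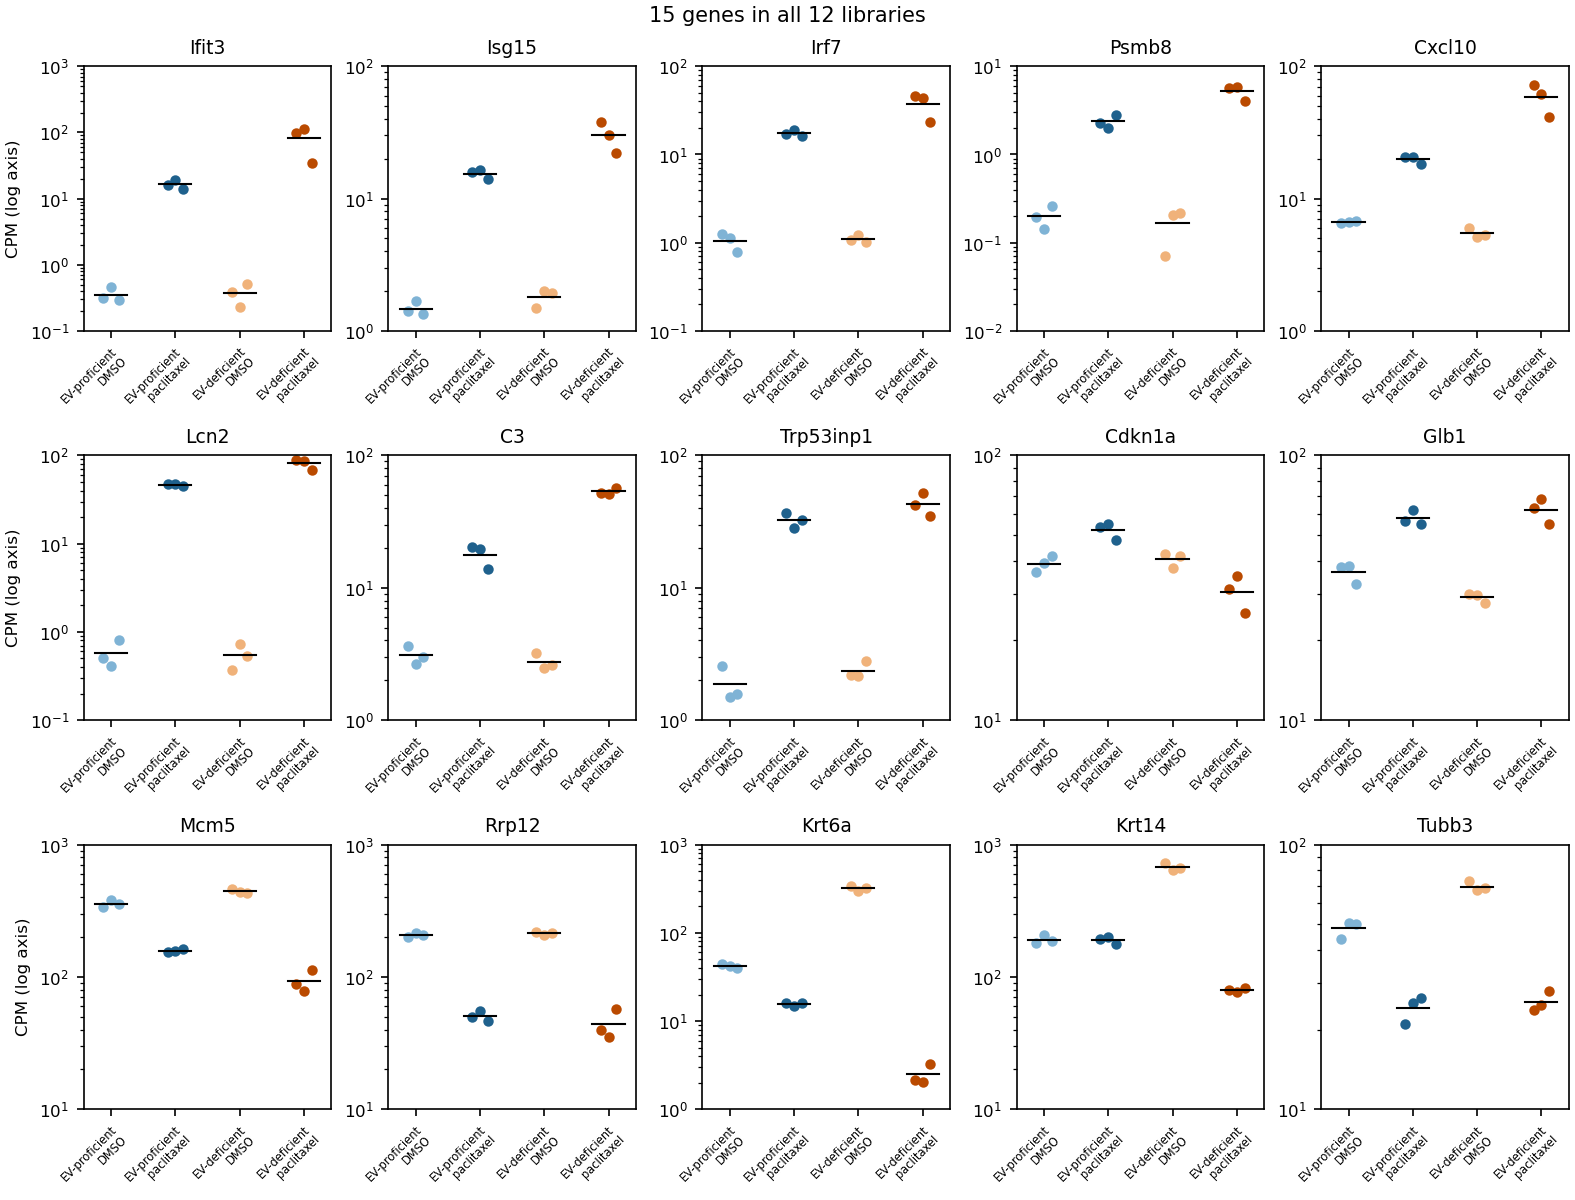
Levels in CPM on log axes of 15 genes in each of the 12 libraries, by group; points are libraries and bars are group means. The interferon-stimulated genes, Lcn2, C3 and Trp53inp1 are higher in both paclitaxel groups, Krt6a and Krt14 are lowest in the EV-deficient paclitaxel libraries, and Cdkn1a is lower there than in the other 3 groups.

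Presentation of peptides on MHC class I, by which cells show their content to CD8 T cells, rose in 17 of 23 genes and fell in 4 (median 1.07), beside 32.4% and 30.5% of all genes. Against EV-proficient DMSO 18 were higher and 3 lower (median 1.15), beside 32.6% and 28.8%. The immunoproteasome subunit Psmb8 went from 0.0714, 0.209 and 0.219 CPM to 5.703, 5.82 and 4.003 CPM (4.97 ± 0.33 SE), and the peptide transporter Tap1 from 0.303, 0.375 and 0.4605 to 15.4, 17.04 and 6.64 CPM (5.10 ± 0.32 SE). In both genes the third treated library was the lowest and the groups did not overlap. Among the abundant members, B2m, the light chain, rose by 1.88 (from 105 ± 1.54 to 388 ± 40.5 CPM). The classical heavy chains H2-K1 (0.54) and H2-D1 (0.69) and the nonclassical H2-T23 (2.97) rose as well, and reads from these similar genes may be shared. Nlrc5, the transactivator of the pathway, rose by 3.00. Calr, Canx and Pdia3, chaperones of the endoplasmic reticulum, fell, Calr by 0.99, Canx by 0.41 and Pdia3 by 0.25 on the log2 scale. With upper-quartile scaling 18 genes of the list were higher and 2 lower, and Pdia3 was not called (-0.07). The fourth, Tapbpl, was not called with that scaling either (-0.17) or without EV-deficient paclitaxel replicate 2 (-0.25).

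Of 13 tested ligands for T and NK cells 10 rose and 1 fell (median 1.99, and 1.28 with 10 higher and 0 lower against EV-proficient DMSO), beside 32.4% and 30.5% of all genes. Cd274, the checkpoint ligand PD-L1, stood at 2.37, 2.36 and 2.04 CPM and rose to 12.2, 15.7 and 9.37 CPM (2.46 ± 0.18 SE). Lgals9, galectin-9, rose from 3.34, 3.11 and 4.14 to 45.1, 37.8 and 31.2 CPM (3.43 ± 0.14 SE). Pvr, the ligand of TIGIT and CD226, fell by 0.47 against its own DMSO group and was not called against EV-proficient DMSO (-0.12).

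Of 19 tested genes listed as chemokines, with the growth factor Csf1 among them, 17 rose and 1 fell, beside 32.4% and 30.5% of all genes. Their median was 1.94. With paclitaxel in the EV-proficient derivative 6 rose and 8 fell (median -0.28), beside 31.1% and 27.1% of all genes. The difference of effects was called higher in the cells labelled EV-deficient for 12 and lower for 2, beside 16.9% and 23.8%. Against EV-proficient DMSO the same paclitaxel libraries gave 15 higher and 1 lower (32.6% and 28.8% of all genes), with a median of 1.11. Cxcl10, which draws T cells, went from 6.05, 5.11 and 5.33 CPM to 71.97, 61.3 and 41.6 CPM (3.40 ± 0.15 SE, edgeR adjusted p 5.44e-14; 3.13 against EV-proficient DMSO), and Ccl5 rose by 2.87.

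For chemokines of monocytes and neutrophils the values against both references are given side by side. Ccl2 stood at 1.12, 1.397 and 1.32 CPM under DMSO and rose to 12.7, 7.46 and 16.3 CPM under paclitaxel (3.25 ± 0.25 SE), while EV-proficient DMSO libraries held 3.83 ± 0.2399 CPM, which gives 1.67. Cxcl5 rose by 2.34 (1.46), Csf1, a growth factor of macrophages, by 1.56 (0.62) and Cxcl1 by 0.71 (0.35), with the value against EV-proficient DMSO in brackets. The platelet chemokine Ppbp was the member that fell, from 244 ± 6.99 to 118 ± 14.6 CPM (-1.05). The letters of an NF-kB site were searched as GGG, any 2 bases and TTTCC on both strands. They occurred in the upstream 250 bases of 6 of 14 genes of this list with an entry (42.9%), Csf1 included, and in 1.41% of all promoters.

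Among 54 secreted factors of senescence other than chemokines, 28 rose and 16 fell (median 0.35), beside 32.4% and 30.5% of all genes, and the counts were the same against EV-proficient DMSO (median 0.32). The collagenase Mmp13 went from 0.625, 0.438 and 0.439 CPM to 11.96, 13.9 and 9.07 CPM (4.52 ± 0.22 SE), and the gelatinase Mmp9 rose by 3.28. Igfbp7, a binding protein of insulin-like growth factors, rose from 78.4 ± 1.61 to 242 ± 40.4 CPM (1.63). Il6 did not pass the filter, with 0, 6 and 5 counts against 11, 3 and 1. Among those that fell, Edn2, endothelin 2, went from 35.4, 29.4 and 37.2 CPM to 0.596, 1.17 and 0.492 CPM (-5.54 ± 0.21 SE), Serpinb2, a plasminogen activator inhibitor, from 420.4 ± 48.8 to 61.5 ± 2.62 CPM (-2.77). Plaur, the urokinase receptor (-2.10), and Areg, an EGF receptor ligand (-2.43), fell too.

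Of 12 tested acute phase and complement genes 10 rose and none fell (median 3.58, or 3.36 at the lower bounds), beside 32.4% and 30.5% of all genes. Against EV-proficient DMSO 10 were higher and 1 lower, the complement regulator Cd55 (0.23 and -0.58). The call for Cd55 against EV-deficient DMSO was lost without any 1 of the 3 EV-deficient DMSO libraries (0.20 to 0.22) and without EV-deficient paclitaxel replicate 1 (0.21) or 2 (0.11). Lcn2, the siderophore-binding lipocalin, stood at 0.375, 0.7298 and 0.526 CPM under DMSO and at 88.7, 87.4 and 68.4 CPM under paclitaxel (7.24 ± 0.17 SE, edgeR adjusted p 3.28e-18), all treated libraries lying above all controls. C3, the central complement protein, went from 3.23, 2.46 and 2.61 to 51.9, 51.5 and 56.98 CPM (4.26 ± 0.15 SE). Steap4, a metalloreductase, rose from 0.2498, 0.167 and 0.0439 to 22.3, 15.8 and 17.2 CPM (6.83, and 5.17 against EV-proficient DMSO). Of the 17 genes of the NF-kB pathway 9 rose and 8 fell (7 and 5 against EV-proficient DMSO, and 9 and 6 with upper-quartile scaling). Its inhibitor and target Nfkbia rose by 0.90, while Rela, a subunit, fell by 0.44.

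Markers of senescence went both ways. Of 17 cell-cycle inhibitors and senescence markers 8 rose and 8 fell (32.4% and 30.5% of all genes), and their median (-0.16) changed sign with upper-quartile scaling (0.03, with 8 higher and 6 lower). Against EV-proficient DMSO 7 were higher and 8 lower. Cdkn1a, which encodes p21, stood at 42.4, 37.6 and 41.7 CPM under DMSO and at 31.4, 34.98 and 25.5 CPM under paclitaxel, lower in each treated library than in each control (-0.41 ± 0.10 SE, edgeR adjusted p 8.21e-04; -0.35 against EV-proficient DMSO). In the cells labelled EV-proficient it rose by 0.43, and the difference of the effects was -0.83 ± 0.14 SE.

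Cdkn2b, p15, rose from 15.97, 14.97 and 18.4 to 35.2, 37.03 and 30.5 CPM (1.06 ± 0.10 SE), Cdkn2a by 0.41 and Cdkn1c, p57, by 1.95 from a level under 1 CPM. Glb1, the lysosomal beta-galactosidase behind the usual senescence stain, went from 29.2 ± 1.32 to 62.2 ± 6.79 CPM (1.09). Lmnb1, the lamin lost from senescent nuclei, fell from 196 ± 5.998 to 102 ± 6.496 CPM (-0.94), and Hmgb2 (-1.34). The pocket proteins Rb1 (1.32) and Rbl2 (1.20) rose. The proliferation marker Mki67 stood at 610.1, 679.9 and 689.9 CPM and fell to 404, 444 and 541 CPM (-0.51 ± 0.09 SE).

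Genes of DNA replication and nucleotide supply fell. All 45 tested were lower, beside 30.5% of all genes, with a median of -1.23 (-1.09 and 45 lower against EV-proficient DMSO). Mcm5, a subunit of the replicative helicase, went from 459, 437 and 434 CPM to 88.1, 78.02 and 113 CPM (-2.25 ± 0.09 SE, edgeR adjusted p 3.42e-14), with no overlap. Cdc6, which loads that helicase, fell from 107 ± 6.83 to 21.4 ± 5.61 CPM (-2.32), Tk1, thymidine kinase (-1.93) and Rrm2, a ribonucleotide reductase subunit (-1.50). With paclitaxel in the EV-proficient derivative 40 of the 45 fell (beside 27.1% of all genes), with a median of -0.60, and the difference of effects was called lower in the cells labelled EV-deficient for 33 and higher for 1, where 23.8% of all genes were lower.

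These genes are known targets of E2F factors, whose letters were searched as TTTNNCGC on both strands. They occurred in 11 of the 37 replication genes with an entry (29.7%) and in 4.28% of all promoters. Both a single and a repeated match are shown in the 160 bases before the start, with matches in capitals: a single match on the opposite strand in Cdc6 (chr11:98907991-98908150, plus strand) and 3 matches in Mcm6 (chr1:128359706-128359865, minus strand), of which 2 overlap as the run TTTGGCGCGAAA. Mcm6 fell (-1.06).
Cdc6: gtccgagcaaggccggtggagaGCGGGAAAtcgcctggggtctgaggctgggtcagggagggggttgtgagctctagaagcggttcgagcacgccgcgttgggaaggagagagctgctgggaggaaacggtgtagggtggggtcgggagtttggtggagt
Mcm6: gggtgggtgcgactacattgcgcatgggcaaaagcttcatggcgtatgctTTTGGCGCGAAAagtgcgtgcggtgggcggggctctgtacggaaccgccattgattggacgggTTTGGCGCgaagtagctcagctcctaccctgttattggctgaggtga

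Most genes of mitosis fell too. Of 49 tested 42 were lower and 3 higher, with a median of -0.57 (-0.53 with 41 lower and 3 higher against EV-proficient DMSO), beside 30.5% of all genes lower and 32.4% higher. With upper-quartile scaling 37 were lower and 6 higher. Plk1, a mitotic kinase, went from 158, 154 and 159 CPM to 80.2, 77.2 and 86.7 CPM (-0.95 ± 0.07 SE), Cdk1 fell (-0.70) and Top2a, topoisomerase II alpha (-0.73). Espl1, separase, fell most in this list (-1.47), followed by Birc5, survivin (-1.38). Pttg1, the securin that restrains separase, rose from 19.3, 17.1 and 18.5 to 38.1, 34.8 and 27.02 CPM (0.86), as did Nusap1 (0.78) and Wee1, the kinase that holds cells before mitosis (0.63). The letters TTTGAA of the cell-cycle homology region occurred in 13 of 40 mitosis genes with an entry (32.5%) and in 16.0% of all promoters.

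Transcripts for ribosome production were low as well. Rrp12, Srm and Trmt61a were among the genes lowest against both DMSO groups, and a list of 28 nucleolar genes was then drawn up, after those values had been seen, so its values are a description. Each of the 28 was lower, beside 30.5% of all genes, with log2 fold changes from -2.27 to -0.58 and a median of -1.38. Against EV-proficient DMSO 28 were lower, beside 28.8% of all genes, with a median of -1.24. With paclitaxel in the EV-proficient derivative 28 fell as well, beside 27.1% of all genes, with a median of -1.02. Rrp12, needed for the export of ribosomal subunits, stood at 219, 208 and 213 CPM and fell to 40.1, 35.3 and 56.8 CPM (-2.27 ± 0.11 SE). Polr1b, a subunit of RNA polymerase I, fell (-1.69), Nop2 (-1.83), Bop1 (-1.78), Nolc1 (-1.82) and Mybbp1a (-1.74). The abundant nucleolar proteins nucleolin (Ncl) and nucleophosmin (Npm1) fell (-1.29 and -1.14). Srm, which makes spermidine, went from 242 ± 10.4 to 53.5 ± 7.66 CPM (-2.17), and Trmt61a, a tRNA methyltransferase, fell (-2.37).

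Of 27 p53 targets 8 were higher and 8 lower, close to the share over all genes (32.4% and 30.5%), with a median of -0.05 that became 0.13 with upper-quartile scaling (12 higher and 7 lower), and 10 higher and 8 lower against EV-proficient DMSO. Trp53inp1, a stress-induced autophagy protein, went from 2.18, 2.15 and 2.78 CPM to 41.97, 52.4 and 34.6 CPM (4.18 ± 0.18 SE, edgeR adjusted p 3.49e-14). Btg2, an antiproliferative factor, rose by 1.83. Aen, an apoptosis nuclease, fell (-1.42), Plk2 (-1.14) and Gtse1 (-1.25). Trp53 itself was lower (-0.41 ± 0.10 SE), a call lost with upper-quartile scaling (-0.22). Among 26 genes of the BCL2 family and cell death 13 rose and 7 fell (14 and 7 against EV-proficient DMSO, and 17 and 3 with upper-quartile scaling), beside 32.4% and 30.5% of all genes. The inflammatory caspases rose, Casp4 from 0.803, 0.876 and 0.833 to 17.1, 13.5 and 10.9 CPM (4.05) and Casp1 by 5.23, and so did the BH3-only gene Bmf (3.88), while Bax fell by 0.78 and Pmaip1, NOXA, by 0.29, a call that upper-quartile scaling did not make (-0.11).

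For the drug's own target, 29 tubulins and microtubule-associated proteins gave 11 higher and 15 lower, with a median of -0.17 beside 32.4% of all genes higher and 30.5% lower. Upper-quartile scaling turned the balance to 12 higher and 9 lower (median 0.01), and against EV-proficient DMSO 8 were higher and 15 lower. Tubb3, the neuronal beta-tubulin linked to taxane tolerance, stood at 72.9, 67.1 and 68.3 CPM and fell to 23.8, 24.7 and 27.9 CPM (-1.45 ± 0.09 SE; -0.92 against EV-proficient DMSO), and Tuba1b fell (-1.12). Tubb5 fell slightly (-0.36). Tuba1a (1.12), Tubb2b (1.08) and Tubb2a (0.40) rose against their own DMSO group. Against EV-proficient DMSO the first was at -0.05 and the second at -0.15, neither of them called, and Tubb2a was lower (-0.22). Of 8 genes of taxane transport 4 rose and 1 fell (2 and 3 against EV-proficient DMSO). Abcb1b, a P-glycoprotein that exports paclitaxel, stood at 82.6, 87.1 and 80.7 CPM and rose to 142, 132 and 133 CPM (0.70 ± 0.06 SE), but was lower than the 169 ± 6.76 CPM of EV-proficient DMSO (-0.32). Abcb1a, its paralog, rose against both (1.43 and 0.86), and Abcc1 fell against both (-0.71 and -0.66).

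Keratins included the gene with the deepest fall. Krt6a, a keratin of activated keratinocytes, stood at 336, 300.0 and 318 CPM in the DMSO libraries and at 2.16, 2.03 and 3.25 CPM under paclitaxel (-6.98 ± 0.12 SE, edgeR adjusted p 3.04e-20), the lowest log2 fold change among all genes tested. EV-proficient DMSO libraries held 41.95 ± 2.26 CPM, which gives -4.06. Of 15 keratins 9 fell and 3 rose, with a median of -0.90 (-0.51, with the same counts, against EV-proficient DMSO), beside 30.5% and 32.4% of all genes. Krt14, the basal keratin, went from 730.3, 645 and 669 CPM to 80.3, 77.4 and 82.5 CPM (-3.09 ± 0.07 SE; -1.26), Krt17 fell (-1.29) and Krt8 (-0.90). Sfn, 14-3-3 sigma, fell from 328 ± 28.9 to 53.5 ± 4.27 CPM (-2.61).

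The kallikrein proteases of the skin fell as well, Klk10 from 141, 122 and 129 CPM to 10.1, 8.35 and 13.5 CPM (-3.61), Klk6 (-3.89) and Klk8 (-2.74). Cpa4, a carboxypeptidase, went from 54.7, 43.04 and 44.9 to 0.503, 0.433 and 1.56 CPM (-5.77, and -6.66 without EV-deficient paclitaxel replicate 3). Against EV-proficient DMSO the falls were -2.01 for Klk10, -2.26 for Klk6, -0.78 for Klk8 and -3.85 for Cpa4. Of 31 genes of keratinocyte differentiation 8 rose and 13 fell, beside 32.4% and 30.5% of all genes, and without EV-deficient DMSO replicate 1 or replicate 3 only 5 rose and 13 fell. Against EV-proficient DMSO 12 were higher and 9 lower. A set of 13 epithelial markers, squamous and general ones together, summed to 6857 to 7400 CPM under DMSO and 3991 to 4218 CPM under paclitaxel. Of its 11 tested members 9 fell and 2, Epcam and Dsp, rose. The call for Epcam was lost without EV-deficient paclitaxel replicate 1 (0.23) and without replicate 2 (0.18). Much of the sum was Krt8, at 1812 ± 72.4 and 971 ± 72.7 CPM, and Krt18, at 1478 ± 75.03 and 718 ± 35.9 CPM, so that it does not measure squamous genes alone.

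For 3 of the 12 lowest genes the fall was called against their own DMSO group and not against the other. Plac8 stood at 69.2, 61.7 and 55.5 CPM under DMSO and at 3.32, 3.396 and 3.56 CPM under paclitaxel (-4.18 ± 0.10 SE), but at 3.601 ± 0.278 CPM in EV-proficient DMSO libraries (-0.07, not called). Degs2, a sphingolipid desaturase, behaved in the same way (-4.61 and -0.16), as did the imprinted gene Peg10 (-3.45 and 0.49), neither called in the second comparison. Tnc, the matrix protein tenascin C, fell against its own DMSO group (-4.25) and against the other (-1.19). For Bcat1, which transaminates branched-chain amino acids, the values were -3.13 and -1.83.

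Homeobox genes of the Hoxb cluster, which mark position along the body axis, went the other way. All 9 tested Hoxb genes rose against EV-deficient DMSO, with a median of 3.04, but against EV-proficient DMSO 2 were higher and 1 lower, with a median of 0.21. Hoxb8 stood at 0.821, 1.11 and 0.855 CPM under DMSO and 10.9, 10.6 and 8.74 CPM under paclitaxel, beside 7.002 ± 0.305 CPM in EV-proficient DMSO libraries (3.44 and 0.52). Hoxd8 gave 3.66 and 0.65. Of the 9 tested Hoxa genes 3 rose and 1 fell, beside 32.4% and 30.5% of all genes, and against EV-proficient DMSO 5 were higher and none lower.

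For 2 cadherins the values differed between the references. Cdh2, N-cadherin, went from 42.1, 39.7 and 37.7 to 161, 133 and 203 CPM (2.06 ± 0.10 SE), with 226 ± 8.63 CPM in EV-proficient DMSO libraries (-0.45). Cdh3, P-cadherin, fell from 184, 164 and 162 to 34.5, 32.6 and 34.8 CPM (-2.32) and was not called against EV-proficient DMSO (-0.08). Among 20 mesenchymal genes 7 rose and 4 fell, among 17 collagens 8 rose and 4 fell, and among 28 genes of epithelial junctions 11 rose and 8 fell. Over all genes 32.4% were higher and 30.5% lower. Against EV-proficient DMSO, where these shares were 32.6% and 28.8%, 11 mesenchymal genes were higher and 4 lower, 8 collagens higher and 3 lower, and 10 junction genes higher and 10 lower. Upper-quartile scaling gave 14 higher and 6 lower for the junction genes. Col4a5, a basement membrane collagen, rose by 1.88 against its own DMSO group and by 2.14 against the other.

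**Figure D5:**
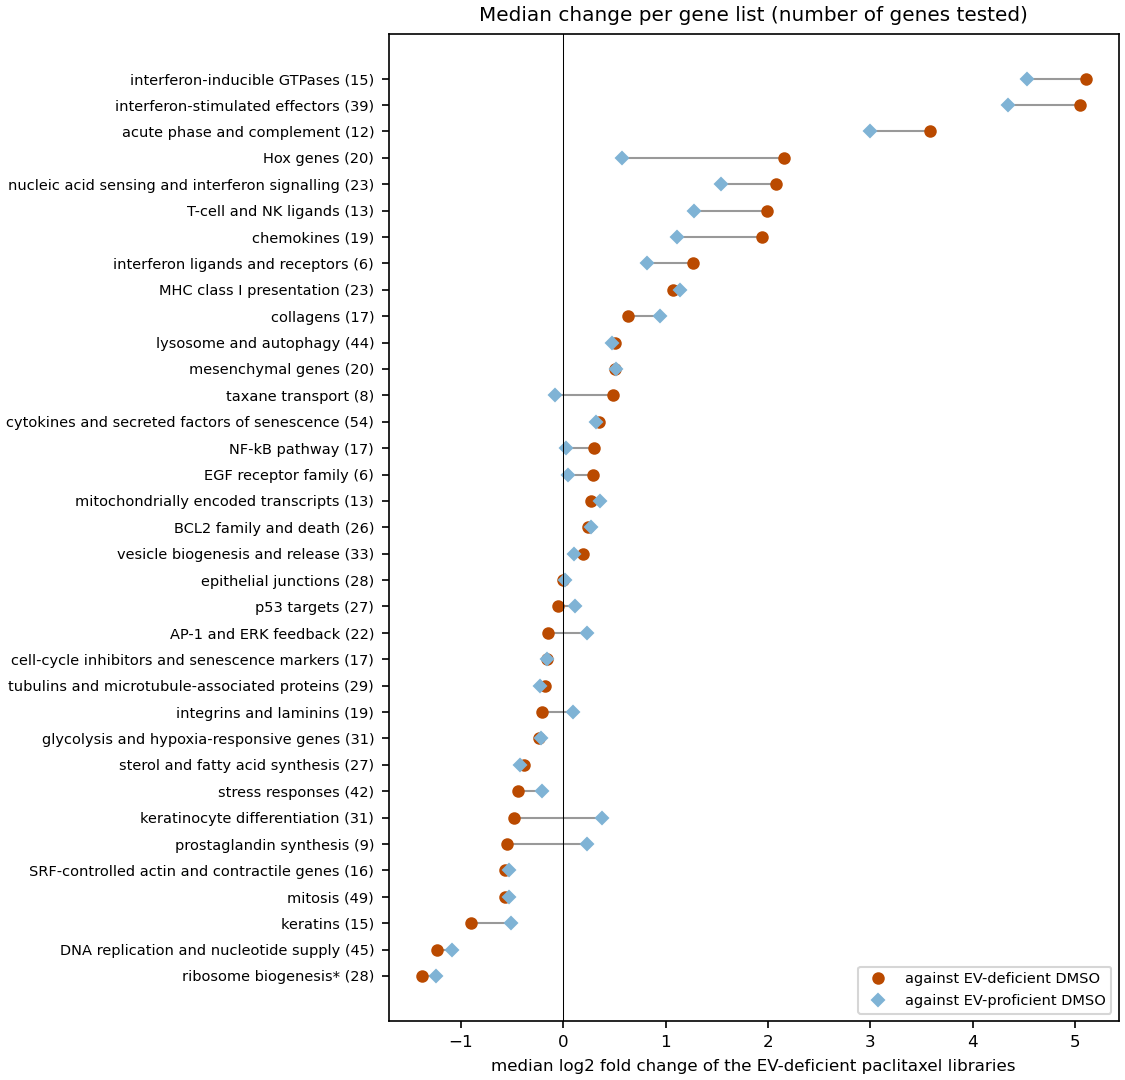
Median log2 fold change of the EV-deficient paclitaxel libraries per gene list, against EV-deficient DMSO (circles) and against EV-proficient DMSO (diamonds), with the number of genes tested in brackets; the asterisk marks the list drawn up after values had been seen. The interferon lists are high and the replication and ribosome lists low against both references, while Hox genes, keratinocyte differentiation and prostaglandin synthesis shift between them.

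Lysosomal genes rose. Of 44 genes of lysosome and autophagy 33 were higher and 5 lower, with a median of 0.51 (0.48 with 35 higher and 5 lower against EV-proficient DMSO), beside 32.4% and 30.5% of all genes. Of the hydrolases alone, 18 of 19 rose. Hexa, a lysosomal hydrolase, went from 15.8, 17.95 and 18.7 CPM to 40.2, 44.2 and 38.7 CPM (1.23 ± 0.09 SE; 2.22), with no overlap between the groups, and the membrane protein Lamp1 rose by 0.67 (0.32). Ctsc, a cathepsin, rose by 2.10 (0.49), each second value being that against EV-proficient DMSO. Calcoco1, an autophagy receptor, rose by 1.93.

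Genes of vesicle formation and release bear on the label of these cells. Of 33 tested 19 rose and 5 fell, with a median of 0.19, beside 32.4% and 30.5% of all genes. Against EV-proficient DMSO 12 were higher and 8 lower (median 0.10), beside 32.6% and 28.8% of all genes. Rab27a and Rab27b, GTPases that dock secretory vesicles, were not called: Rab27a stood at 5.37, 5.19 and 5.07 CPM under DMSO and 4.603, 4.54 and 4.79 CPM under paclitaxel (-0.17 ± 0.14 SE), and Rab27b at 54.4 ± 1.59 and 56.6 ± 6.52 CPM (0.06 ± 0.08 SE). Upper-quartile scaling called Rab27b higher (0.24). Tspan8, a tetraspanin found on vesicles, rose from 19.4, 20.6 and 20.3 to 129, 133 and 105 CPM (2.60 ± 0.10 SE), Cd81 rose by 0.66 and Smpd3, the neutral sphingomyelinase, by 1.94. Pdcd6ip, ALIX, fell by 0.40 on the log2 scale and Vps37b, an ESCRT subunit, by 0.80, while Cd63 was not called (-0.09).

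Most genes of stress responses and of lipid synthesis fell, beside 30.5% of all genes that fell and 32.4% that rose. Among all genes over 100 CPM 1606 of 2389 fell, and at 10 to 100 CPM 3129 of 6778. The part of level in the counts of gene lists, these included, was not tested. Of 42 stress-response genes 27 fell and 9 rose (21 and 9 against EV-proficient DMSO), and of 27 genes of sterol and fatty acid synthesis 18 fell and 5 rose (20 and 2). Of 31 genes of glycolysis and hypoxia 13 rose and 16 fell (13 and 13 with upper-quartile scaling, 13 and 14 against EV-proficient DMSO). They split into 18 glycolytic genes, of which 5 rose and 13 fell, and 13 hypoxia-responsive genes, of which 8 rose and 3 fell. Fasn, fatty acid synthase, went from 2066 ± 24.5 to 676 ± 163 CPM (-1.61), Pkm, pyruvate kinase, from 3307 ± 179 to 1345 ± 118 CPM (-1.30). Shmt2, a mitochondrial enzyme of serine metabolism (-1.70), and Atf4, the factor that drives amino acid synthesis (-0.70), fell as well. Fth1, the ferritin heavy chain, rose from 1394 ± 14.3 to 2595 ± 246 CPM (0.90). Ptgs2, cyclooxygenase 2, fell from 1686, 1505 and 1444 CPM to 439.7, 438 and 528 CPM (-1.72 ± 0.08 SE; -1.08 against EV-proficient DMSO). Of 13 mitochondrially encoded transcripts 7 rose and none fell (12 rose with upper-quartile scaling, and 10 were higher against EV-proficient DMSO). Among them mt-Co1, whose reads can be shared with nuclear copies, went from 3363 ± 439 to 7026 ± 1419 CPM (1.06 for mt-Co1).

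Actin and contractile genes controlled by SRF fell in 9 of 16 cases and rose in 3 (11 and 3 against EV-proficient DMSO). Actg1, cytoplasmic gamma-actin, went from 2615 ± 102 to 961 ± 58.7 CPM (-1.44; -1.54 against EV-proficient DMSO), Flna, filamin A, fell (-1.10) and Srf itself (-1.53). Of 22 genes of the AP-1 and ERK feedback group 9 rose and 10 fell (beside 32.4% and 30.5% of all genes). The counts were 10 and 7 against EV-proficient DMSO, and 9 and 6 with upper-quartile scaling, where the median turned from -0.15 to 0.03. Fosl1 fell (-1.53) and Dusp5, an ERK phosphatase (-1.40), whereas Fos rose by 1.16 and Egr1 by 0.85.

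Markers of other cell types were low throughout. The summed level of 8 fibroblast markers was 2.61 to 3.42 CPM under DMSO and 6.68 to 8.38 CPM under paclitaxel, and that of 6 endothelial markers 1.79 to 2.68 and 3.28 to 4.37 CPM. The 11 leukocyte markers summed to 9.69 to 10.99 CPM and 24.8 to 41.6 CPM, and most of this was Cd68, a lysosomal membrane protein, which went from 7.41, 7.902 and 8.46 to 29.3, 39.2 and 21.4 CPM (1.92). Of the 5 leukocyte markers tested 3 were higher and none lower, beside 32.4% and 30.5% of all genes. Besides Cd68 these were Itgax, with 10, 5 and 1 counts under DMSO and 55, 10 and 35 under paclitaxel, and Cd79a, with 18, 14 and 23 against 46, 24 and 58 (edgeR adjusted p 0.0486). The log2 fold change of Itgax was 2.51, but 1.91 without EV-deficient paclitaxel replicate 1 and 3.19 without EV-deficient DMSO replicate 1. The call for Cd79a was lost without EV-deficient DMSO replicate 1 or 2, without EV-deficient paclitaxel replicate 1 or 3, with the replicate block and with no low-count filter (0.89 to 1.07). Ptprc, which encodes CD45, had 32 to 60 counts in the 6 libraries and Coro1a 41 to 54, and neither was called. The other 6, Cd3e, Nkg7, Tyrobp, Adgre1, Lyz2 and Itgam, had at most 7 counts in any of the 6 libraries. The part of these levels in the interferon and chemokine results was not tested.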

How the data were processed

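Stranded libraries of polyadenylated RNA were sequenced, per the labels' protocols. What the authors deposited is a single table of raw read counts for 55421 Ensembl genes and 2 added rows; the latter stayed out of library sizes and tests. The submitters' processing notes name STAR 2.5.0a and GRCm38. Whether counting used strand is not given in the sources used here, so antisense and overlapping genes are uncertain.

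In R 4.3.3, edgeR 4.0.16 was run on these counts. Its filterByExpr (minimum count 10) retained 18108 of the 35104 genes seen at all. Scaling was by TMM, with factors from 0.890 to 1.15. A quasi-likelihood fit over all 12 libraries, with 4 group means, gave a common dispersion of 0.00956, and P-values were adjusted after Benjamini and Hochberg over all tested genes. An SE is the log2 fold change over the root of its F statistic. A group with at most 3 counts in every library was at the floor (0.0492 to 0.0658 CPM in the 6 libraries); folds against it are lower bounds from that floor, which covers counting error only. On simulated counts for the comparison with EV-deficient DMSO (17448 genes), the test recovered 53 of 67 genes changed 1.5-fold, 60 of 67 changed 2-fold and 66 of 66 changed 4-fold, and called 10 unchanged genes. In the simulation few genes changed and every group had the same spread. It therefore did not test scaling where 62.9% of genes are called, nor a spread that differs between groups.

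Named genes were the 12 highest and 12 lowest log2 fold changes among called genes with a symbol that is no clone name, a mean of at least 5 CPM and groups that did not overlap, 8 in each direction against both DMSO groups, up to 5 of each list and 3 against its majority, and 16 fixed genes. Other list members were named after their values were seen. Members and the 35 lists (928 entries) were chosen with earlier results of these data known, the ribosome list after Rrp12, Srm and Trmt61a were seen. Alternatives were other scalings and filters, DESeq2 1.42.0, limma-voom (limma 3.58.1), a replicate block, a fit without the other groups, and omission of each library. Replicates differed beyond sampling noise (chi-square over degrees of freedom 4.20 to 27.8).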

Additional observations from a re-analysis of the deposited data

Results flagged for a closer look

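Of the 297 genes examined singly, 51 were called in opposite directions under paclitaxel in the cells of the 2 EV labels, with a called difference of the effects by the interaction test of edgeR. Over all 18108 genes this held for 1283 (7.09%), and since the 297 were partly picked for extreme values, their count cannot be read against that share. The difference is the log2 effect in the cells labelled EV-deficient minus that in the cells labelled EV-proficient. It was negative, with a fall in the cells labelled EV-deficient and a rise in the others, for 26 genes. The largest were those of Plac8 (-8.01), Peg10 (-7.17), Nectin4 (-7.02), Degs2 (-6.75), Edn2 (-6.61), Rnf165 (-5.96), Tnc (-5.80), Prrx1 (-4.49), AU018091 (-4.15), Nqo1 (-4.12), Cdh3 (-3.68), Sparc (-3.47), Bcat1 (-3.46) and Klk8 (-3.34). Smaller negative differences were those of Dsg3 (-3.30), Serpinb2 (-3.04), Hoxa4 (-2.98), Mb21d1 (-2.17), Krt17 (-1.64), Spry2 (-1.30), Hmga1 (-1.29), Pmaip1 (-0.97), Pla2g4a (-0.88), Cdkn1a (-0.83), Pvr (-0.76) and Mavs (-0.76).

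For 25 genes the difference was positive, with a rise in the cells labelled EV-deficient and a fall in the others. The largest were those of Hoxb5 (6.90), Hoxb8 (5.71), Hoxb13 (5.58), Hoxd8 (5.42), Cdh2 (5.27), Ccl2 (5.14), Col5a1 (3.55), Ctsc (3.08), Zeb1 (2.98), Cxcl5 (2.73), Csf1 (2.44) and Tuba1a (2.40). Smaller positive differences were those of Abcb1b (2.09), Tubb2b (2.06), Abcc4 (1.57), Tubb2a (1.31), Itga2 (1.25), Egfr (1.23), Cxcl1 (1.19), Cd55 (1.15), Lamp1 (0.87), Dsp (0.87), mt-Rnr1 (0.86), Fads1 (0.53) and Ankrd1 (0.39). The rise of Ankrd1 in the cells labelled EV-deficient was only 0.13, and its call was lost without any 1 of the 3 EV-deficient DMSO libraries, without EV-deficient paclitaxel replicate 1 and with no low-count filter (0.09 to 0.12). The fall of Pmaip1 was not called with upper-quartile scaling (-0.11). Several of these genes, among them Plac8, Degs2, Peg10, Cdh3, Hoxb5 and Hoxb13, were not called when the EV-deficient paclitaxel libraries were set against EV-proficient DMSO.

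The added dngfr row, which entered no comparison, had more than 3 counts in all 12 libraries and reached 12.4 CPM. It was over 5 CPM in the EV-proficient DMSO and EV-deficient paclitaxel libraries and under 4 CPM in the other 6. What this row marks is not given in the labels, and its part in the differences above was not tested.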

How the results depend on the processing

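The count of genes called for paclitaxel against EV-deficient DMSO lay between 9991 (at least 1 CPM in 3 libraries, with 13519 genes tested) and 11578 (upper-quartile scaling). Leaving out 1 library gave 10493 to 11310, against EV-proficient DMSO 10167 to 10987, and for the difference of effects 6560 to 7367. Upper-quartile scaling moved the share of higher calls from 53.1% to 64.3% against EV-proficient DMSO and from 41.4% to 53.9% for the difference of effects. Correlations of same-numbered deviations were small, at 0.051, 0.016 and 0.019, although each library correlated best with its own number. A weak pairing of libraries by replicate number was therefore not excluded. The replicate block gave 11363, 11043 and 7386 calls. Of 297 genes examined singly none reversed, 19 lost their call in at least 1 setting and 1 gained one, and the filter at 1 CPM left low genes untested. Acute phase and complement genes had 5 calls of 5 tested under that filter rather than 10, and mitochondrially encoded transcripts 12 under upper-quartile scaling rather than 7. Genes under 1 CPM rest on few counts.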
